A study of Danio rerio with 12 samples.

Results

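The TCDD effect on the small RNA of whole zebrafish embryos was compared between 2 stages. For each miRNA, the log2 ratio of TCDD over DMSO embryos at 36 h post fertilization (hpf) was subtracted from the same ratio at 60 hpf, over all 12 libraries. A positive stage difference means that the ratio of TCDD over DMSO was higher at 60 hpf than at 36 hpf, and a negative one that it was lower. The members were all rows named as miRNAs or let-7, 699 in all. A row was dropped where a more abundant hairpin copy of the same mature name and arm carried nearly the same count. This left 464 entries for 412 names and arms, since copies of unequal count were kept apart. Each entry is called a miRNA below. Of the 464, 410 had counts high enough to be tested and 54 had not. A star marks the arm of a hairpin that the files list with an asterisk, usually the rarer one.

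The embryos were of the strain TL wild type and were exposed to 2,3,7,8-tetrachlorodibenzo-p-dioxin (TCDD), or received dimethyl sulfoxide (DMSO), the vehicle. The groups were TCDD embryos at 60 hpf, DMSO embryos at 60 hpf, TCDD embryos at 36 hpf and DMSO embryos at 36 hpf, with 3 libraries each. The dose, the hours of exposure and the number of embryos per library are not stated in the labels, nor whether the 3 libraries of a group came from separate clutches, so p-values measure the spread between these libraries, which may be technical. The labels name no transgene or mutation.

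TCDD is the model ligand of the aryl hydrocarbon receptor, a transcription factor that moves to the nucleus on binding it and switches on detoxifying enzymes. In fish embryos, sustained activation of the receptor is known for defects of the heart, the circulation and the jaw cartilage, which appear as these organs form. A miRNA is cut from a hairpin as a short RNA that pairs with messenger RNAs and lowers their output, and many miRNAs mark 1 cell type, such as miR-142 in blood cells and miR-153 in neurons.

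Libraries held 2007639 to 4210840 miRNA counts in TCDD embryos and 2374864 to 3738502 in DMSO embryos at 60 hpf, and 459634 to 1236528 in TCDD embryos and 648934 to 3557670 in DMSO embryos at 36 hpf. The TCDD libraries at 36 hpf were thus the shallowest group by range. Levels are given in CPM, which sets each count against the size of its library, scaled by the trimmed mean of M-values (TMM), and they are not corrected for how well each miRNA is ligated and sequenced. miRNAs known for muscle (miR-1), epidermis (miR-203b), neurons (miR-124), liver (miR-122), red cells (miR-451) and cartilage (miR-140) were listed in all 12 libraries, as whole embryos would have them. In bulk samples, fewer cells of a type and less of a miRNA per cell cannot be told apart. The second principal component set both TCDD libraries numbered 3 apart from the rest, and the third set both numbered 2 apart. For several values that rest on the libraries numbered 3, the value without them is given beside the result.

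No miRNA passed the test of the stage difference. With the edgeR quasi-likelihood test and Benjamini-Hochberg adjustment, 0 of 410 (0.0%) were called at an adjusted p under 0.05, and the smallest adjusted p was 0.388. At an unadjusted p under 0.05 there were 19 (4.63%), of which 5 were positive and 14 negative, where a uniform distribution of p-values gives 20.5. DESeq2 called 6, the edgeR likelihood ratio test 1 and limma-voom 0. Stage differences were negative for 220 miRNAs (53.7%) and positive for 190 (46.3%), with a median of -0.07 and an SD of 0.91 on the log2 scale. The sign of this median depended on the scaling. It was 0.17 under upper quartile scaling, 0.28 under total counts and -0.02 under RLE, a further scaling. The TCDD values at the stages had opposite signs for 189 (46.1%). The size of the values exceeded 1 for 75 miRNAs and 2 for 15.

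The precision was limited: the median SE of a stage difference was 0.66 and the median half-width of its 95% interval was 1.46, both on the log2 scale. A stage difference of that size or smaller was not detectable for most miRNAs after adjustment for the number tested. Larger values were not called either, such as -4.28 (SE 0.95) for miR-723*. The lack of calls does not show that the TCDD value was the same at both stages.

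**Figure D1:**
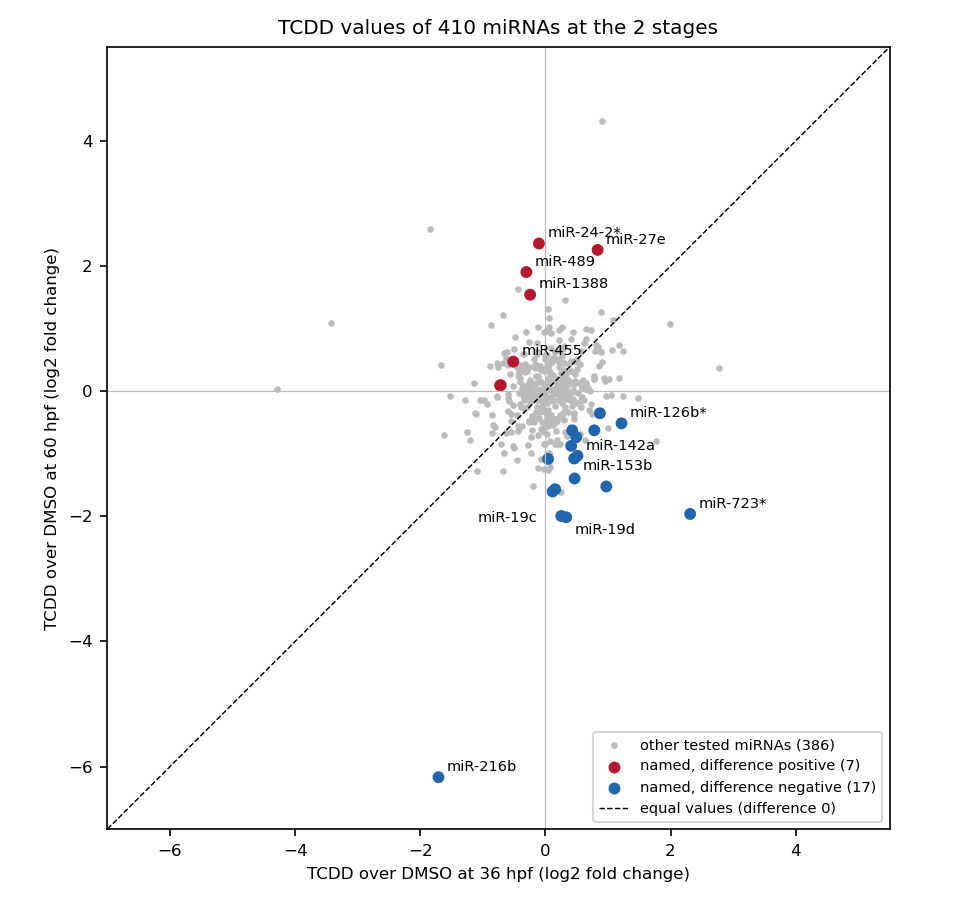
Log2 ratio of TCDD over DMSO at 60 hpf (vertical) against the ratio at 36 hpf (horizontal) for the 410 tested miRNAs, with the 24 of smallest p coloured by the sign of the stage difference. The dashed line marks equal values, and the 24 coloured points lie on both sides of it, 17 with a negative and 7 with a positive stage difference.

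The 24 miRNAs of smallest p are described below by their values, since none was a call. Their values chose them, so their sizes and signs are a description. The last one inside, miR-10b, had an unadjusted p of 0.0685 in edgeR's test, and the first one outside, miR-212, had 0.0712. They belong to 17 families, and 7 of them (29.2%) are star arms, against 216 of all 410 tested (52.7%). Their mean levels ran over all libraries from 6.27 to 24218 CPM with a median of 381 CPM, against a median of 144 CPM over all tested miRNAs. Adjusted p-values ran from 0.388 to 0.871.

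The most frequent pattern among them was a TCDD value below 0 at 60 hpf and above 0 at 36 hpf, which 16 of the 24 showed. Another 6 were above 0 at 60 hpf and below 0 at 36 hpf, 1 (miR-27e) was above 0 at both stages, and 1 (miR-216b) was below 0 at both. Over all tested miRNAs the first pattern held for 104 and the second for 85. The TCDD value was larger in size at 60 hpf for 17 of the 24 and at 36 hpf for 7, against 207 of all 410 (50.5%) that were larger at 60 hpf. At 60 hpf the TCDD and DMSO libraries did not overlap for 19 of the 24, against 88 of all tested (21.5%). At 36 hpf they did not overlap for 7 of the 24, against 22 of all tested (5.37%). At both stages they did not overlap for 4 of the 24, against 8 of all tested (1.95%). The choice by p favours such miRNAs, and nothing is read from these shares.

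**Figure D2:**
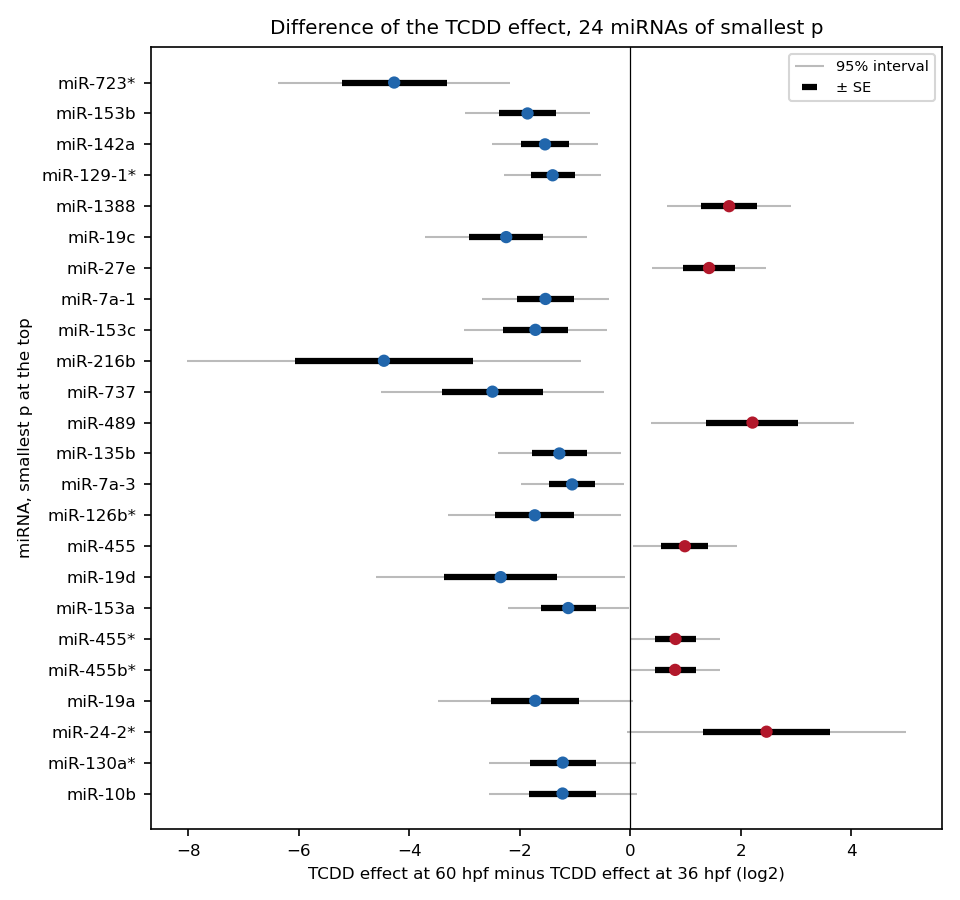
Stage difference of the TCDD effect (log2, horizontal) for the 24 miRNAs of smallest p, with the SE as a black bar and the 95% interval as a grey line. The intervals leave out 0 for 19 of the 24 before any adjustment for the number tested, and the 7 positive values run from 0.81 to 2.46.

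Of the neural list, 14 of 29 tested members were positive and 15 negative, with a median of -0.11, against a median of -0.07 over all 410. The negative members among the 24 were the 3 mature miR-153 arms and miR-129-1*. The miR-153 family sits within genes for phosphatase-like receptors of secretory granules, miR-153b in ptprnb, miR-153c in ptprna and miR-153a in ptprn2. miR-153b, the most abundant of them, had 2242, 3234 and 3219 CPM in the TCDD libraries at 60 hpf, against 7791, 8221 and 6873 CPM in the DMSO libraries. At the earlier stage miR-153b had 10951, 20079 and 16757 CPM in the TCDD libraries at 36 hpf, against 16894, 11194 and 6503 CPM in the DMSO libraries. The TCDD libraries all lay below the DMSO libraries at 60 hpf, while the groups overlapped at 36 hpf. Its TCDD value was -1.40 at 60 hpf and 0.47 at 36 hpf, a stage difference of -1.86 (SE 0.51) with adjusted p = 0.407.

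miR-153c showed the same arrangement, with 1110.4, 1905 and 698 CPM in the TCDD libraries at 60 hpf, against 3670.1, 4334 and 3287 CPM in the DMSO libraries. It had 2773, 4250.5 and 2539 CPM in the TCDD libraries at 36 hpf, against 4108, 2818 and 1902 CPM in the DMSO libraries. Again only the 60 hpf groups stood apart. The TCDD values of -1.60 at 60 hpf and 0.12 at 36 hpf gave a stage difference of -1.72 (SE 0.59) with adjusted p = 0.626. miR-153a, the least abundant, had 626, 1132 and 530.1 CPM in the TCDD libraries at 60 hpf, against 1355, 2113 and 1380.1 CPM in the DMSO libraries, and 797, 1015 and 858 CPM in the TCDD libraries at 36 hpf, against 1096, 841 and 657 CPM in the DMSO libraries. Its stage difference was -1.13 (SE 0.50), almost all of it from the 60 hpf value of -1.08. The 3 star arms of the family did not share this, with stage differences of -0.26 to 0.50, each smaller than its SE. The mature arms of the family are near copies of each other, so reads may be shared between them and the 3 values are not independent.

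miR-7 is known in neuroendocrine and neural cells. miR-7a-1 had 659, 568 and 608 CPM in the TCDD libraries at 60 hpf, against 1448, 1133 and 1292 CPM in the DMSO libraries, and 537, 755 and 329 CPM in the TCDD libraries at 36 hpf, against 562, 374 and 245 CPM in the DMSO libraries. The 60 hpf groups did not overlap and the 36 hpf groups did. A further copy whose count differed, miR-7a-3, had 134, 127 and 141 CPM in the TCDD libraries at 60 hpf, against 230.0, 222 and 168 CPM in the DMSO libraries, and 53.5, 64.7 and 74.2 CPM in the TCDD libraries at 36 hpf, against 63.8, 44.9 and 34.9 CPM in the DMSO libraries. Stage differences were -1.54 (SE 0.52) for miR-7a-1 and -1.06 (SE 0.42) for miR-7a-3, with adjusted p = 0.626 and adjusted p = 0.871. Copies of 1 mature miRNA may share reads, so these 2 are not separate evidence.

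miR-129 is a brain and retina miRNA, and its star arm was counted from 2 hairpins with unequal counts. miR-129-1* had 71.2, 84.7 and 69.1 CPM in the TCDD libraries at 60 hpf, against 124, 96.2 and 127 CPM in the DMSO libraries. It had 44.0, 66.3 and 47.0 CPM in the TCDD libraries at 36 hpf, against 33.6, 29.7 and 28.5 CPM in the DMSO libraries. The TCDD libraries lay wholly below the DMSO libraries at 60 hpf and wholly above them at 36 hpf. The TCDD value was -0.63 at 60 hpf and 0.78 at 36 hpf, and the stage difference -1.41 (SE 0.40) with adjusted p = 0.407. This rested on keeping the 2 hairpins apart: with copies summed the stage difference was -0.11, since the copy at the other hairpin was far more abundant. The mature arm, miR-129, went the other way, with 2.08 (SE 1.55). That arm was rare, with 2.31, 17.0 and 21.4 CPM in the TCDD libraries at 60 hpf, against 1.96, 7.07 and 4.22 CPM in the DMSO libraries, and 0, 6.32 and 4.94 CPM in the TCDD libraries at 36 hpf, against 6.71, 0.802 and 5.58 CPM in the DMSO libraries, and the groups overlapped at both stages. Its stage difference ran over 1.23 to 3.24 with single libraries left out, lowest without the first and highest without the second TCDD library at 36 hpf.

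miR-135b was abundant, with 1732, 3542 and 4739.7 CPM in the TCDD libraries at 60 hpf, against 7775, 5314 and 5286 CPM in the DMSO libraries. Its other levels were 6469.8, 6415 and 5699 CPM in the TCDD libraries at 36 hpf, against 5127, 5116 and 3733 CPM in the DMSO libraries. As with miR-129-1*, the TCDD libraries were all lower at 60 hpf and all higher at 36 hpf. The TCDD value was -0.88 at 60 hpf and 0.41 at 36 hpf, which gave a stage difference of -1.29 (SE 0.50) with adjusted p = 0.840.

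miR-19 comes from clusters of the miR-17-92 type, known in mammals for favouring cell growth and survival. All 4 mature miR-19 arms, a group looked at after its values were seen, had negative stage differences, from -2.35 to -1.72, and 3 of them were among the 24. The other, miR-19b, had -1.87 (SE 1.03). Mature arms of 1 family may share reads, so the 4 values are not independent. miR-19c had 4701, 4329 and 1974 CPM in the TCDD libraries at 60 hpf, against 18074, 14264 and 11565 CPM in the DMSO libraries. The same miRNA, miR-19c, had 22571, 37023 and 12193 CPM in the TCDD libraries at 36 hpf, against 28433, 18802 and 13026 CPM in the DMSO libraries. The 60 hpf groups were separated by a wide gap, with the lowest TCDD library being number 3. The stage difference of miR-19c was -2.25 (SE 0.66) with adjusted p = 0.429, from TCDD values of -2.0 at 60 hpf and 0.25 at 36 hpf.

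miR-19d showed the strongest pull of a single library, with 2802, 2312 and 158 CPM in the TCDD libraries at 60 hpf, against 7817, 6633 and 6867 CPM in the DMSO libraries. At the earlier stage it had 11138, 16121 and 10059.8 CPM in the TCDD libraries at 36 hpf, against 12168, 10168 and 7308 CPM in the DMSO libraries. Number 3 of the 60 hpf TCDD libraries was far below its own group, and the other 2 were still below every DMSO library. The most abundant of the 3, miR-19a, had 8733, 10873 and 1480.5 CPM in the TCDD libraries at 60 hpf, against 16645, 26605 and 19279.8 CPM in the DMSO libraries, and 35627, 44620.4 and 28837 CPM in the TCDD libraries at 36 hpf, against 37169, 37651 and 23095 CPM in the DMSO libraries. Here too the third TCDD library at 60 hpf was the lowest. Stage differences were -2.35 (SE 1.02) for miR-19d and -1.72 (SE 0.80) for miR-19a. Without that library they were -1.80 for miR-19d, -1.24 for miR-19a and -1.94 for miR-19c. Without both TCDD libraries numbered 3 they were -1.94, -1.39 and -2.27 in the same order.

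Hairpins of 1 cluster are usually transcribed together, and the miR-19 values were set beside those of their cluster mates within 10 kb in the RefSeq GRCz12tu annotation. The 3 mature arms next to miR-19c (miR-363, miR-20b and miR-18c) had stage differences of -0.11 to 0.68. The 2 next to miR-19d (miR-25 and miR-93, within the replication helicase gene mcm7) had -0.17 to 0.17. The 5 next to miR-19a, among them miR-19b, had -1.87 to 0.49, of which 3 were positive. The star arms of the miR-19 hairpins themselves had -0.31 to 0.69. Most arms cut from the same hairpins or transcripts thus had values smaller in size than the miR-19 arms, and the difference between them was not tested. Several mates were measured with little precision, with an SE of 1.98 for miR-93, 1.71 for miR-20a, 1.44 for miR-18a and 1.24 for miR-18c. Their values thus do not show that these mates had no stage difference.

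Against this, the miRNAs of the miR-23, miR-24 and miR-27 clusters, known in vessels and muscle, were mostly positive. miR-27e had 149.7, 137 and 115 CPM in the TCDD libraries at 60 hpf, against 27.1, 29.9 and 26.9 CPM in the DMSO libraries. The same miRNA had 57.8, 42.6 and 54.4 CPM in the TCDD libraries at 36 hpf, against 35.2, 16.8 and 34.9 CPM in the DMSO libraries. The TCDD libraries lay above the DMSO libraries at both stages, with a wide gap at 60 hpf and a narrow one at 36 hpf. TCDD values of 2.26 at 60 hpf and 0.83 at 36 hpf gave a stage difference of 1.42 (SE 0.47) with adjusted p = 0.626. The 5 mature miR-27 arms, also grouped after their values were seen, all had positive stage differences, from 0.20 to 1.42, while 4 of the 5 star arms were negative. These mature arms may share reads as well, so the 5 values are not independent, and the SE for miR-27c was 1.93. miR-27e* itself had -0.92 (SE 0.66), with TCDD values above 0 at both stages, 1.07 at 60 hpf and 1.99 at 36 hpf. Its stage difference was -0.55 without the first TCDD library and -1.44 without the third at 60 hpf.

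miR-24-2* was rare, with 28.0, 12.6 and 10.5 CPM in the TCDD libraries at 60 hpf, against 1.40, 7.46 and 1.30 CPM in the DMSO libraries, and 2.59, 20.5 and 7.42 CPM in the TCDD libraries at 36 hpf, against 11.7, 11.2 and 9.10 CPM in the DMSO libraries. The groups stood apart at 60 hpf only. Its stage difference of 2.46 (SE 1.14) had an interval that reached 0, and it was 1.17 with copies summed, 3.75 without the second TCDD library at 36 hpf and 3.73 without the second DMSO library at 60 hpf. Its mature arm, miR-24, which is counted alike from 4 hairpins, had a stage difference smaller than its SE.

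**Figure D3:**
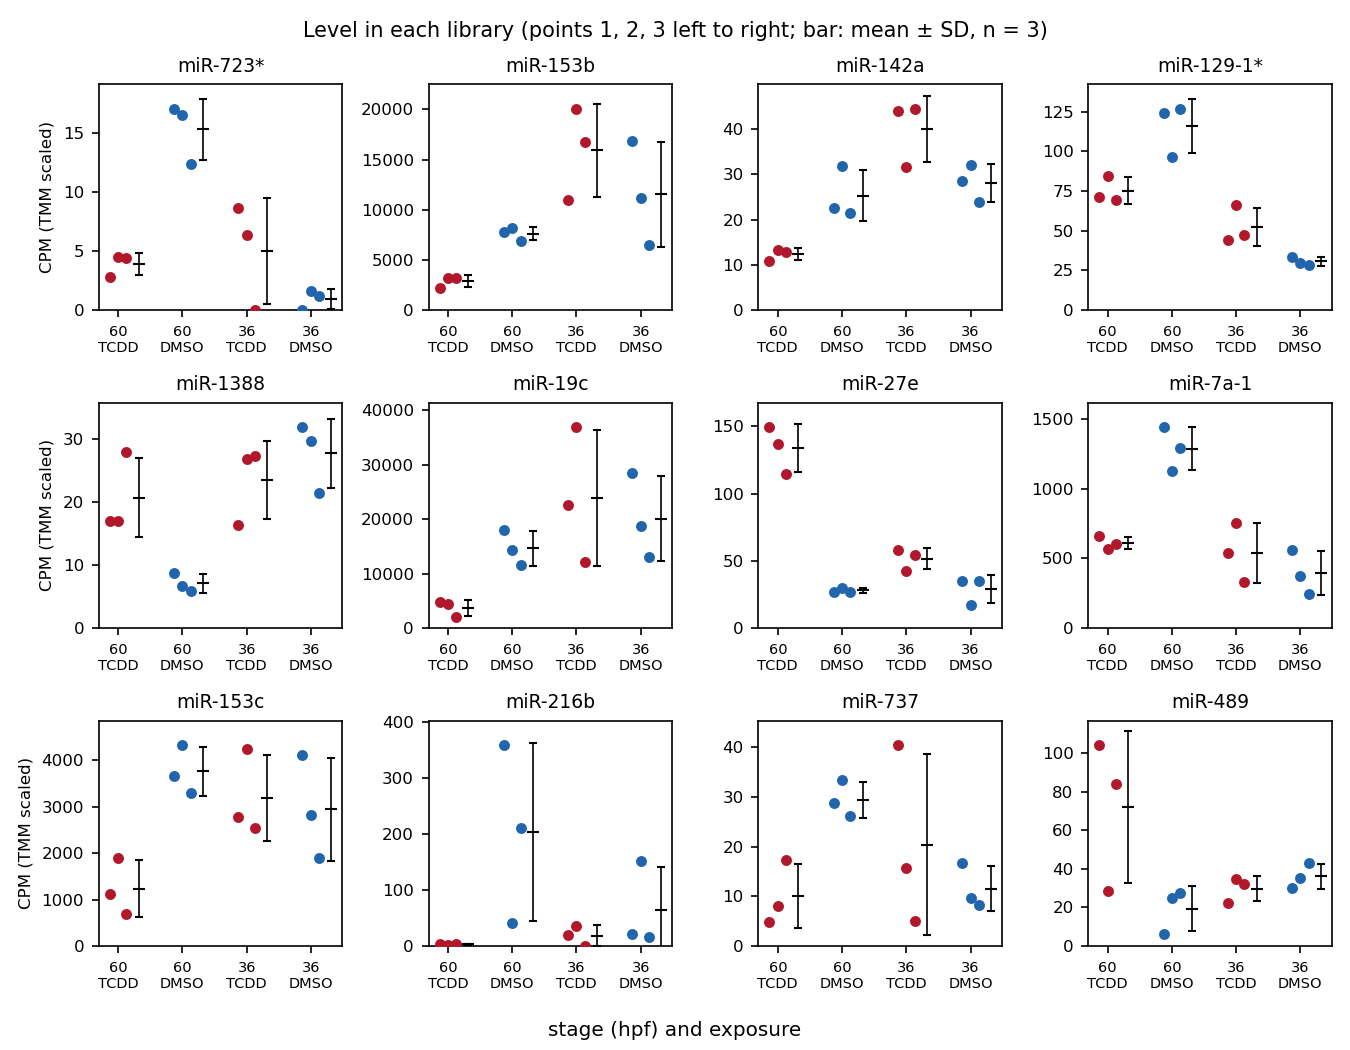
Level of the 12 miRNAs of smallest p in each library (CPM, TMM scaled, a linear axis from 0 in each panel), with TCDD embryos in red, DMSO embryos in blue, and the mean and SD of each group (n = 3) beside its points. In 9 of the 12 panels the 60 hpf TCDD libraries lie below the DMSO libraries, and in the other 3 (miR-1388, miR-27e and miR-489) above them.

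Among blood and vessel miRNAs, miR-142a and miR-126b* were of the 24, both negative. miR-142a is made in blood cells, leukocytes above all. It had 10.8, 13.4 and 12.8 CPM in the TCDD libraries at 60 hpf, against 22.6, 31.8 and 21.4 CPM in the DMSO libraries. At the earlier stage it had 44.0, 31.6 and 44.5 CPM in the TCDD libraries at 36 hpf, against 28.5, 32.1 and 23.8 CPM in the DMSO libraries. Each TCDD library at 60 hpf was below each DMSO library, whereas the groups at 36 hpf overlapped by a narrow margin. The TCDD values of -1.03 at 60 hpf and 0.51 at 36 hpf gave a stage difference of -1.55 (SE 0.43) with adjusted p = 0.407. The other arm of the hairpin, miR-142a*, was negative as well at -1.11 (SE 0.56), but through its 36 hpf value of 1.04, with -0.07 at 60 hpf. Both arms were rare, with 142 counts of miR-142a over the 3 TCDD libraries and 228 over the 3 DMSO libraries at 60 hpf, and 89 over the TCDD and 138 over the DMSO libraries at 36 hpf.

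miR-126b lies within egfl7, a gene of the endothelium. Its star arm had 5.92, 9.73 and 8.78 CPM in the TCDD libraries at 60 hpf, against 9.50, 18.1 and 7.46 CPM in the DMSO libraries, and 12.9, 26.8 and 44.5 CPM in the TCDD libraries at 36 hpf, against 13.4, 8.02 and 13.5 CPM in the DMSO libraries. The groups overlapped at both stages. The stage difference was -1.73 (SE 0.71), and it was -0.90 without the shallowest library of each group, an alternative added after seeing the data. Its far more abundant mature arm had a value smaller than its SE.

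Cartilage miRNAs were the list with the highest median, and 3 arms of miR-455 were among the 24. miR-455 lies within the fibrillar collagen gene col27a1b, and miR-455b within col27a1a. miR-455 had 135, 137 and 135 CPM in the TCDD libraries at 60 hpf, against 67.9, 102 and 125 CPM in the DMSO libraries. It had 68.1, 61.6 and 76.6 CPM in the TCDD libraries at 36 hpf, against 80.6, 89.8 and 123 CPM in the DMSO libraries. The TCDD libraries were all higher at 60 hpf, close together, and all lower at 36 hpf. The TCDD values of 0.47 at 60 hpf and -0.51 at 36 hpf gave a stage difference of 0.98 (SE 0.43) with adjusted p = 0.871. The mature arm of the paralog, miR-455b, had 1.23 (SE 0.70), and 1.90 without the first TCDD library at 36 hpf.

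Of the star arms, miR-455* had 854, 703 and 659 CPM in the TCDD libraries at 60 hpf, against 596, 628 and 856 CPM in the DMSO libraries, and 396, 529 and 388 CPM in the TCDD libraries at 36 hpf, against 679.7, 680.2 and 809 CPM in the DMSO libraries. The groups overlapped at 60 hpf, and the TCDD libraries were lower at 36 hpf. Its stage difference was 0.82 (SE 0.36), mainly from the 36 hpf value of -0.72. miR-455b* had nearly the same count in every library and a stage difference of 0.81 (SE 0.37), so the 2 may be 1 measurement.

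miR-216b is made with miR-217 and miR-216a in the exocrine pancreas. It had 3.34, 2.03 and 2.86 CPM in the TCDD libraries at 60 hpf, against 359, 41.6 and 210.2 CPM in the DMSO libraries. It had 19.8, 36.3 and 0 CPM in the TCDD libraries at 36 hpf, against 21.8, 152 and 16.1 CPM in the DMSO libraries. At 60 hpf the TCDD libraries were near 0 and the DMSO libraries were high and uneven, while at 36 hpf the groups overlapped. One 36 hpf TCDD library had 0 counts, where 3 counts would be 7.42 CPM. The TCDD value was negative at both stages, -6.17 at 60 hpf and -1.71 at 36 hpf, and the stage difference was -4.46 (SE 1.61) with adjusted p = 0.729. Without that library it was -4.92. The 60 hpf TCDD libraries rested on 33 counts in all and the DMSO libraries on 2039. Its 2 mature cluster mates had stage differences of -0.49 to 1.28, each smaller than its SE (1.47 for miR-216a and 1.73 for miR-217). These values thus do not show whether the mates had a stage difference.

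Some of the 24 carry numbers first given in fish or have no settled role here. miR-723* had the smallest p of all, with 2.83, 4.46 and 4.39 CPM in the TCDD libraries at 60 hpf, against 17.0, 16.5 and 12.3 CPM in the DMSO libraries. It had 8.63, 6.32 and 0 CPM in the TCDD libraries at 36 hpf, against 0, 1.60 and 1.17 CPM in the DMSO libraries. The 60 hpf groups stood apart, and the 36 hpf levels rested on 14 counts over the TCDD and 6 over the DMSO libraries. A library with 0 counts could hold up to 3 counts, which is 7.42 CPM in the third TCDD library and 5.03 CPM in the first DMSO library. The stage difference was -4.28 (SE 0.95), with a 95% interval from -6.38 to -2.18 and adjusted p = 0.388. Without the third TCDD library at 36 hpf it was -4.57 with an adjusted p of 0.0176, where leaving out single libraries gave adjusted p-values of 0.0176 to 0.985. Its abundant other arm, miR-723, had 929.6, 426 and 1101 CPM in the TCDD libraries at 60 hpf, against 1997, 1026 and 1048 CPM in the DMSO libraries, and 439, 267 and 462 CPM in the TCDD libraries at 36 hpf, against 242, 255 and 356 CPM in the DMSO libraries. Those groups overlapped at both stages, and the stage difference of miR-723 was -1.18 (SE 0.59), of the same sign and smaller. It was -0.76 without the second TCDD library and -0.78 without the first DMSO library at 60 hpf.

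miR-1388 was the positive value of smallest p, with 17.0, 17.0 and 27.9 CPM in the TCDD libraries at 60 hpf, against 8.66, 6.68 and 5.84 CPM in the DMSO libraries. It had 16.4, 26.8 and 27.2 CPM in the TCDD libraries at 36 hpf, against 31.9, 29.7 and 21.4 CPM in the DMSO libraries. The TCDD libraries at 60 hpf were all above the DMSO libraries, and the 36 hpf groups overlapped. TCDD values of 1.54 at 60 hpf and -0.24 at 36 hpf gave 1.79 (SE 0.51) with adjusted p = 0.407. miR-489, which sits in the calcitonin receptor gene calcr, had 104, 28.4 and 84.2 CPM in the TCDD libraries at 60 hpf, against 6.15, 24.7 and 27.2 CPM in the DMSO libraries, and 22.4, 34.7 and 32.1 CPM in the TCDD libraries at 36 hpf, against 30.2, 35.3 and 43.2 CPM in the DMSO libraries. The TCDD libraries were higher at 60 hpf, the second of them by a small margin. Its stage difference was 2.21 (SE 0.83) with adjusted p = 0.779.

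miR-737, in the endocytosis adaptor gene ap2m1b, had 4.89, 8.11 and 17.4 CPM in the TCDD libraries at 60 hpf, against 28.8, 33.4 and 26.3 CPM in the DMSO libraries, and 40.5, 15.8 and 4.94 CPM in the TCDD libraries at 36 hpf, against 16.8, 9.62 and 8.22 CPM in the DMSO libraries. The TCDD libraries were all lower at 60 hpf, and at 36 hpf they ran from the lowest to the highest of the 6. The stage difference was -2.50 (SE 0.91), and it was -1.53 without the first TCDD library at 36 hpf. miR-10b, made from the Hox clusters, had 15890.2, 4262 and 13685 CPM in the TCDD libraries at 60 hpf, against 20436, 13602 and 22283 CPM in the DMSO libraries, and 23008, 39061 and 29354 CPM in the TCDD libraries at 36 hpf, against 23969, 20426 and 20533 CPM in the DMSO libraries. The groups overlapped at both stages, with the second TCDD library at 60 hpf far below the others. Its stage difference of -1.23 (SE 0.61) was -0.76 without that library. miR-130a* is the star arm of a hairpin in the list of miR-130, miR-301 and miR-454, which pools both arms. It had 349.8, 653 and 751 CPM in the TCDD libraries at 60 hpf, against 866, 663 and 713 CPM in the DMSO libraries. At 36 hpf it had 784, 788 and 1177 CPM in the TCDD libraries, against 705, 569 and 229.9 CPM in the DMSO libraries. Only at 36 hpf did its groups not overlap, with TCDD higher, and the stage difference was -1.23 (SE 0.60).

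The same numbers can be read as the change between stages, 60 hpf over 36 hpf, in embryos of each exposure, since the stage difference is the change in TCDD embryos minus the change in DMSO embryos. For miR-153b the change was -2.46 in TCDD embryos and -0.60 in DMSO embryos, and for miR-19c -2.71 in TCDD and -0.46 in DMSO embryos, with both values below 0 and the TCDD value further below. miR-142a had -1.70 in TCDD embryos and little change, -0.15, in DMSO embryos. A second kind had a higher level at 60 hpf in DMSO embryos and little change in TCDD embryos, as miR-7a-1 with 0.18 in TCDD and 1.72 in DMSO embryos. miR-723* had -0.56 in TCDD and 3.72 in DMSO embryos. For miR-1388 the change was -0.16 in TCDD and -1.94 in DMSO embryos. A further kind had a change near 0 in DMSO embryos and a higher value in TCDD embryos, as miR-27e with 1.37 in TCDD and -0.05 in DMSO embryos.

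**Figure D4:**
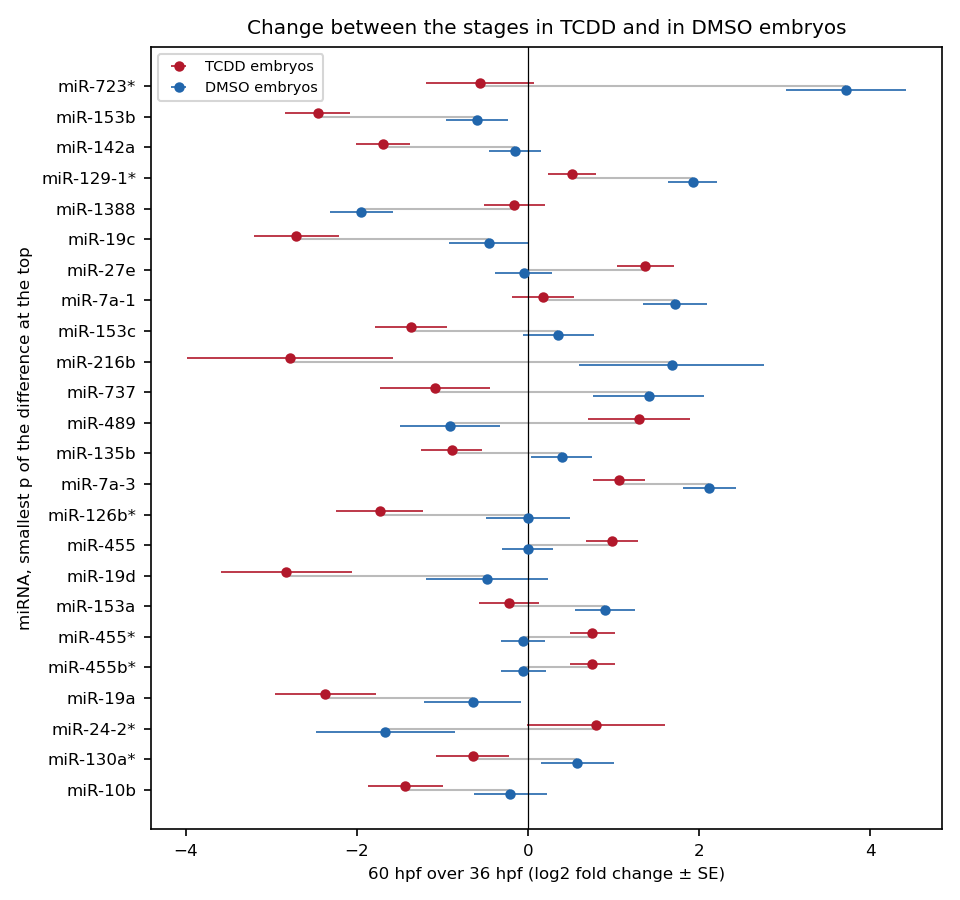
Log2 ratio of 60 hpf over 36 hpf (horizontal, ± SE) in TCDD embryos (red) and in DMSO embryos (blue) for the 24 miRNAs of smallest p, where the distance between the paired points is the stage difference. The red point lies left of the blue one for the 17 miRNAs with a negative stage difference, and right of it for the 7 with a positive one.

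The lists of miRNAs by tissue and family were described by their counts and medians, with 0 calls in each. Beside them, 190 of all 410 tested were positive and 220 negative, with a median of -0.07. Cartilage and mesenchyme had the highest median: 9 of 11 tested members were positive and 2 negative, with a median of 0.81. miR-455* and miR-455b*, which may be 1 measurement, both count here, and without miR-455b* there were 8 positive and 2 negative members with a median of 0.80. The 2 negative members were the mature arms miR-140 and miR-199, named after their values were seen. With mature miR-214 they ran from -0.32 to 0.05, so the median rests on the star arms and on miR-455 and miR-455b. The star arms miR-140* and miR-199-2* also added to the star arm share given below. For the clusters of miR-23, miR-24 and miR-27, 16 of 20 tested members were positive and 4 negative, with a median of 0.35. Of the stress, p53 and hypoxia miRNAs, 6 of 10 tested members were positive and 4 negative, with a median of 0.24. The leading one was the star arm of the hypoxia miRNA miR-210, with 0.65 (SE 0.34). Its levels were 3848, 3325 and 3523 CPM in the TCDD libraries at 60 hpf, against 2966, 2369 and 2835 CPM in the DMSO libraries, and 4157, 4356 and 4294 CPM in the TCDD libraries at 36 hpf, against 4122, 4987 and 6237 CPM in the DMSO libraries, so the groups stood apart at 60 hpf only.

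At the other end, for the erythroid miRNAs, 0 of 4 tested members were positive and 4 negative, with a median of -0.87. The members are both arms of miR-144 and of miR-451, so they are not independent. miR-144, named after its values were seen, was uneven, with 1278, 27 and 498 counts in the TCDD and 1419, 136 and 758 in the DMSO libraries at 60 hpf. At 36 hpf it had 436, 0 and 23 counts in the TCDD and 11, 187 and 888 in the DMSO libraries. miR-451, the red cell miRNA that is cut without Dicer, had 1667, 2645 and 842 CPM in the TCDD libraries at 60 hpf, against 3646, 3022 and 3551 CPM in the DMSO libraries, and 3579, 4614 and 581 CPM in the TCDD libraries at 36 hpf, against 3754, 3465 and 1229 CPM in the DMSO libraries. The 60 hpf TCDD libraries were below the DMSO libraries. Stage differences were -1.04 (SE 0.96) for miR-451 and -1.23 (SE 0.79) for miR-451*. The third TCDD library was the lowest for miR-451 at both stages, and without both of these libraries the values were -1.20 for miR-451 and -1.35 for miR-451*. With single libraries left out, miR-451 ran over -1.50 to -0.43, smallest in size without the second TCDD library at 36 hpf, and miR-451* over -2.05 to -0.83, largest in size without the first DMSO library at 36 hpf. For leukocyte miRNAs, 1 of 11 tested members were positive and 10 negative, with a median of -0.57, led by both arms of miR-142a. Of the 10, 4 were arms of miR-142, among which miR-142a* and miR-142b* had similar counts and may share reads. Another of the 10, miR-150, was at -0.0009, which is hardly a difference. For the Hox clusters, 3 of 17 tested members were positive and 14 negative, with a median of -0.42, with miR-10b as the leading negative and miR-10a* at 0.71 (SE 0.41). The 5 star arms of miR-196 in this list had 3 to 9 counts in the third TCDD library at 60 hpf, against 60 to 315 in the other 2, and 2 to 12 in the third TCDD library at 36 hpf. Without the third TCDD library at 60 hpf, 5 members of the list were positive and 12 negative, with a median of -0.19, and without both TCDD libraries numbered 3 the numbers were 5 and 12, with a median of -0.16. miR-196a-1* and miR-196c* had nearly equal counts, and without miR-196c* the list had 3 positive and 13 negative members and a median of -0.39.

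Vessel and muscle lists were mostly negative by count under TMM scaling, with medians nearer to that of all miRNAs. Endothelial and vessel miRNAs had 4 positive and 13 negative of 17 tested, with a median of -0.22, and miR-218b* went the other way at 1.14 (SE 0.82). miR-218b* was 0.74 without the first and 2.20 without the second DMSO library at 60 hpf. Without both TCDD libraries numbered 3, the endothelial and vessel list had 7 positive and 10 negative members. Its median was then -0.03, against -0.03 over all tested miRNAs. Muscle and heart miRNAs had 4 positive and 11 negative of 15 tested, with a median of -0.24, led by miR-1-2* at -0.81 (SE 0.56) and miR-499* at -0.67 (SE 0.50). miR-1-2* was -0.42 without the second TCDD library and -1.25 without the third at 60 hpf. miR-499* ran over -1.03 to -0.35 with single libraries left out, smallest in size without the first DMSO library at 36 hpf. Without both TCDD libraries numbered 3, the muscle and heart list had 6 positive and 9 negative members, with a median of -0.21. The miR-17-92 type clusters, which hold miR-19, had 12 positive and 18 negative of 30 tested, with a median of -0.17. Liver and gut miRNAs had 2 positive and 3 negative of 5 tested, with a median of -0.23, with miR-122* at -0.72 (SE 0.44) and miR-194b* at 0.83 (SE 0.64). miR-122* was -0.42 without the first DMSO and -0.43 without the second TCDD library at 36 hpf, and miR-194b* was 1.39 without the third TCDD library at 36 hpf.

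Sensory and retina miRNAs had 9 positive and 9 negative of 18 tested, with a median of 0.01. Within them, miR-181a, a retina miRNA, had 12499.5, 11742 and 10092 CPM in the TCDD libraries at 60 hpf, against 22831, 22122 and 27828 CPM in the DMSO libraries, and 7379, 10696 and 3345 CPM in the TCDD libraries at 36 hpf, against 8816, 8591 and 5142 CPM in the DMSO libraries. The 60 hpf groups stood far apart, and its stage difference was -1.01 (SE 0.54), beside -0.90 (SE 0.51) for the hair cell miRNA miR-96. miR-181a was -0.48 without the second TCDD library at 36 hpf, and miR-96 was -0.54 without the third. Pancreas and endocrine miRNAs had 8 positive and 7 negative of 15 tested, with a median of 0.02, although miR-216b and miR-7a-1 were among the leading negative values. Epithelial miRNAs had 10 positive and 8 negative of 18 tested, with a median of 0.08, led by miR-429 at 1.28 (SE 0.71) and miR-141* at 1.23 (SE 0.88).

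The remaining lists were near the median of all miRNAs or a little above it. The miR-130, miR-301 and miR-454 family had 10 positive and 6 negative of 16 tested, with a median of 0.16, and in it miR-454a had 4.45 (SE 2.24). Its levels were 15.4, 76.2 and 499 CPM in the TCDD libraries at 60 hpf, against 12.6, 62.1 and 23.4 CPM in the DMSO libraries, and 21.6, 71.1 and 418 CPM in the TCDD libraries at 36 hpf, against 366, 13.6 and 1437 CPM in the DMSO libraries, and the groups overlapped at both stages. It was 2.35 without the third TCDD library at 60 hpf and 2.64 without the third DMSO library at 36 hpf, and 2.35 to 6.34 over all single libraries left out. The miR-15 and miR-16 family had 8 positive and 7 negative of 15 tested, with a median of 0.06, with miR-15c at 0.72 (SE 0.40) and miR-16c at -0.66 (SE 0.54). Without the third TCDD library at 36 hpf, miR-16c was -0.02. The let-7 family, which marks differentiating cells, had 9 positive and 11 negative of 20 tested, with a median of -0.03. In it let-7b had -2.41 (SE 1.20) and let-7a -0.57 (SE 0.51). With single libraries left out, let-7b ran over -3.31 to -1.33, smallest in size without the third TCDD library at 36 hpf, and let-7a over -0.74 to -0.26, smallest without the third DMSO library at 36 hpf. let-7b was rare at the earlier stage, at 1.73, 6.32 and 17.3 CPM in the TCDD libraries at 36 hpf, against 0, 2.41 and 0.587 CPM in the DMSO libraries. The library with 0 counts could hold up to 3 counts, which is 5.03 CPM. The miR-430 family, which clears maternal messenger RNAs in the early embryo, had 3 positive and 5 negative of 8 tested, with a median of -0.16, with miR-430b* at -0.55 (SE 0.43) and miR-430j*, which may share its reads, at -0.54 (SE 0.46). These were -0.33 and -0.30 without the first TCDD library at 60 hpf, and -0.33 and -0.28 without the first at 36 hpf. For miR-26 there were 2 positive and 4 negative of 6 tested, with a median of -0.22, with miR-26b* at -0.61 (SE 0.43), and for miR-30 3 positive and 6 negative of 9 tested, with a median of -0.10.

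Signs of list medians depended on the scaling. Upper quartile scaling moved the median of all miRNAs by 0.24, and total counts by 0.35, relative to TMM. Under these, 9 of the 20 list medians turned positive (endothelial and vessel, let-7, liver and gut, miR-17-92 type, miR-26, miR-30, miR-430, muscle and heart, and neural). Taken relative to the median of all miRNAs, only miR-30 and neural changed side, both within 0.04 of it. Relative to that median, cartilage and mesenchyme stood at 0.88 under TMM, 0.84 under upper quartile scaling and 0.90 under total counts. The leukocyte list stood at -0.50, -0.48 and -0.52 in the same order, and the erythroid list at -0.79, -0.79 and -0.81. List medians also depended on single libraries. With each library left out in turn, an alternative added after seeing the data, the medians of 13 of the 20 lists changed sign. The other 7 kept it: cartilage and mesenchyme ran over 0.69 to 1.04, the clusters of miR-23, miR-24 and miR-27 over 0.26 to 0.53, erythroid over -1.12 to -0.58, leukocyte over -0.72 to -0.41, Hox clusters over -0.61 to -0.19, muscle and heart over -0.33 to -0.03, and endothelial and vessel over -0.27 to -0.07.

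**Figure D5:**
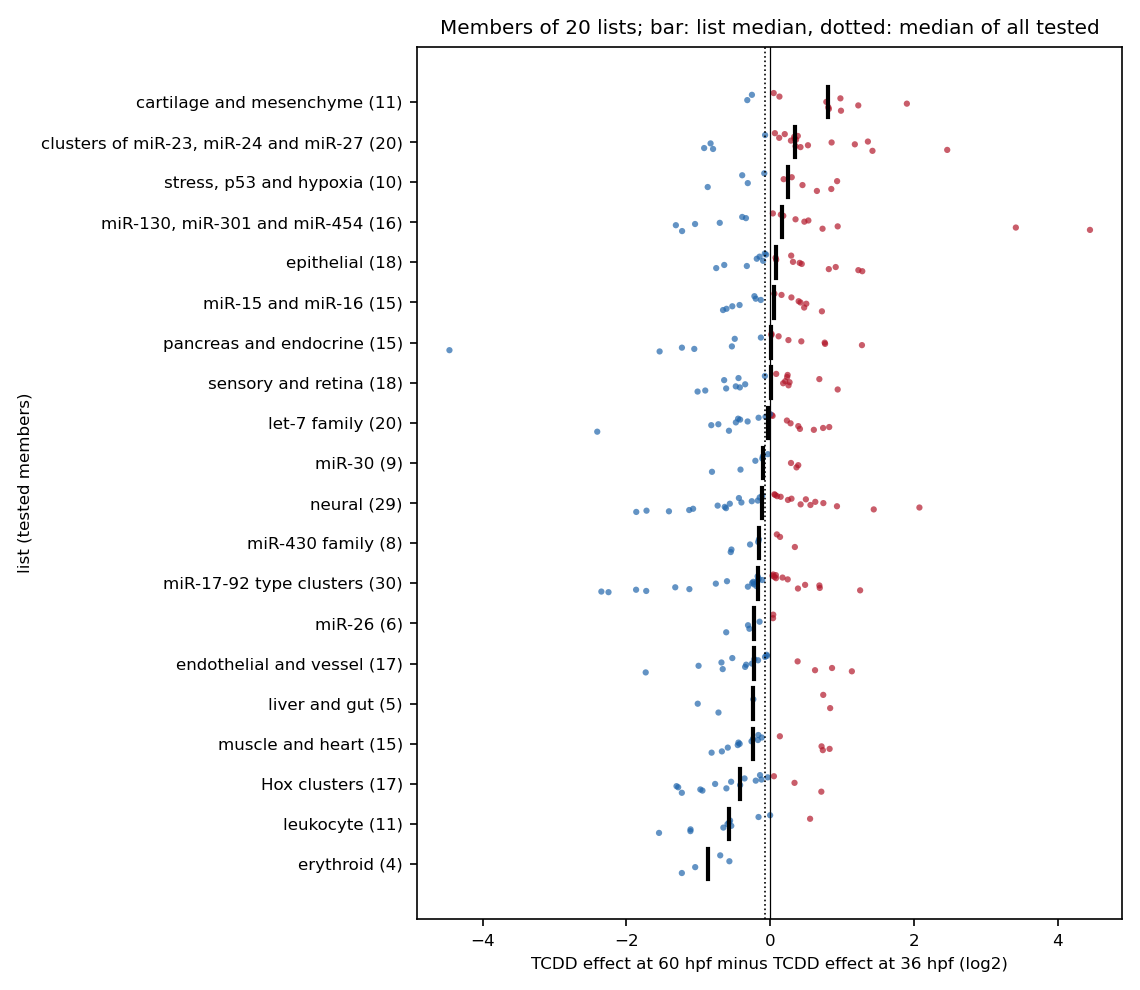
Stage difference (log2, horizontal) of every tested member of the 20 lists (points, blue below 0 and red above), with the median of each list as a black bar and the median of all tested miRNAs as a dotted line. Erythroid and leukocyte lists lie lowest with medians of -0.87 and -0.57, and cartilage and mesenchyme highest with 0.81, under TMM scaling.

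Paired mature and star arms had stage differences of like sign about as often as of unlike sign. Of the 24 miRNAs, 21 had a tested other arm, and 14 of these had the same sign. These counts take in less abundant star copies, and the miR-455 hairpin enters from each of its arms. Over all tested miRNAs, the most abundant mature copy of each name was paired with its most abundant star copy, where these were tested. Of the 172 such pairs, which leave out less abundant copies, 89 (51.7%) had stage differences of the same sign. Across these pairs, which share libraries and are not independent, Pearson's r was 0.09 and Spearman's rho 0.13. The median stage difference was -0.12 for mature arms and 0.01 for star arms.

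The share of miRNA counts on star arms was also set out by stage. Star arms made up 10.4%, 10.1% and 10.9% of counts in the TCDD libraries at 60 hpf, against 7.03%, 7.27% and 7.06% in the DMSO libraries. At 36 hpf the shares were 7.45%, 6.93% and 8.55% in the TCDD libraries, against 7.37%, 6.80% and 8.50% in the DMSO libraries. The groups stood apart at 60 hpf and interleaved at 36 hpf. The mean share was 10.5% ± 0.407 in TCDD embryos and 7.12% ± 0.132 in DMSO embryos at 60 hpf, and 7.64% ± 0.827 in TCDD embryos and 7.56% ± 0.862 in DMSO embryos at 36 hpf (SD, n = 3 each). The stage difference of 3.28 percentage points had p = 0.0700 in a 2-sided exact permutation test over the 400 relabellings of exposure within stage, which can give no p below 0.005, so it did not pass. The null of that test is no TCDD effect at either stage. The arms that added most were miR-130b*, miR-199-2* and miR-140*. Of these, miR-140* had more counts than its other arm, miR-140, in every library. In the TCDD libraries at 60 hpf it had 37837, 20879 and 57876 counts, against 7564, 4950 and 9051 for miR-140. miR-199-2* had more counts than miR-199 in the TCDD libraries at 60 hpf and fewer in the DMSO libraries. miR-130b* had fewer than miR-130b in every library. A higher share on star arms is thus not the same as a higher share on rarer arms. The TMM factors were highest in the group with the highest star arm share. At 60 hpf they were 1.21 to 1.24 in the TCDD libraries and 0.956 to 1.07 in the DMSO libraries. At 36 hpf they were 0.856 to 0.938 in the TCDD libraries and 0.885 to 0.957 in the DMSO libraries. The factors did not follow the share throughout, since DMSO embryos at 60 hpf had the lowest mean share but not the lowest factors. Their part in the result was not tested.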

How the data were processed

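Small RNA libraries made with the SREK kit were sequenced on a SOLiD V3 system, per the labels' protocols. The authors deposited raw counts per feature, 1 table per library. The submitters' processing notes name edgeR, with no version. For the aligner, genome build and rule on reads with several matches, a name was not given in the sources used here. Rows of Ensembl transcripts (1.20 to 5.35% of counts) were left out of library sizes, and a row missing from a table was taken as 0. Hairpin copies of 1 mature name and arm were counted once, by the most abundant copy, where their totals were alike (at least 80.0% of it).

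Counts were tested in R 4.3.3 with edgeR 4.0.16 (TMM, filterByExpr with 10 counts and 15 in total, robust quasi-likelihood, 4 group means over 12 libraries, Benjamini-Hochberg over 410 miRNAs), and checked on simulated data. SEs are the log2 value divided by the square root of F, and 95% intervals use the t distribution. Limits from a count of 0 are 3 counts, for counting error only. limma 3.58.1 and DESeq2 1.42.0 served as alternatives. Named are the 24 miRNAs of smallest p, their other arms and the 2 of smallest p in each of 20 lists. Values smaller than their SE are given as ranges only, a rule set after the values were seen. The members and lists were chosen with earlier results of these data known.

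Libraries of the same number deviated together between the stages for TCDD (correlations 0.252 to 0.416) but not for DMSO (-0.229 to 0.0180), nor between exposures within 60 hpf (-0.0929 to 0.128) or 36 hpf (-0.228 to 0.114). The first TCDD library at 60 hpf and the second DMSO library at 36 hpf, of unlike number, had 0.246. The lowest of the TCDD pairs, 0.252 for number 1, was hardly above that. The pairing of TCDD libraries comes from the data alone, and no label states it. RefSeq's table of GRCz12tu was used for names, host genes and neighbours only, and mature sequences were not used here.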

Additional observations from a re-analysis of the deposited data

Results flagged for a closer look

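For 3 of the 410 tested miRNAs, all TCDD libraries lay on one side of the DMSO libraries at 60 hpf and all on the other side at 36 hpf. Of all tested, the groups did not overlap for 88 (21.5%) at 60 hpf, 22 (5.37%) at 36 hpf and 8 (1.95%) at both. With 3 libraries per group, a few such miRNAs can arise by chance among 410, and nothing is read from their number. miR-129-1* was lower in all TCDD libraries at 60 hpf and higher in all at 36 hpf, with a stage difference of -1.41. As given above, this rested on keeping its hairpins apart, and with copies summed the stage difference was much smaller. miR-135b was lower in all TCDD libraries at 60 hpf and higher in all at 36 hpf, with a stage difference of -1.29. miR-455 was higher in all TCDD libraries at 60 hpf and lower in all at 36 hpf, with a stage difference of 0.98. The test of the stage difference itself, edgeR's quasi-likelihood test, did not pass for any of the 3, with adjusted p = 0.407 for miR-129-1*, 0.840 for miR-135b and 0.871 for miR-455.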

How the results depend on the processing

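No stage difference was called under 29 of 32 alternatives to the main test. Over the 32 alternatives, 15 to 35 miRNAs had an unadjusted p under 0.05. For the fit with Ensembl rows this counts its 28 miRNAs only. DESeq2 called 6 (miR-723*, miR-153b, miR-142a, miR-129-1*, miR-1388 and miR-27e) and edgeR's likelihood ratio test 1 (miR-723*). Leaving out single libraries gave 0 to 2 calls. The 2 came without the third TCDD library at 36 hpf and were miR-723* and miR-193b*, the second named after its values were seen, at -4.57 and 3.72 with an adjusted p of 0.0176 each. Without both TCDD libraries numbered 3, an alternative added after seeing the data, the count was 0. The cause was not tested. With a replicate block there were 0 calls over all groups, 0 with the block within stage, 0 within exposure and 0 for TCDD libraries only, so the pairing changed no call. The block for TCDD libraries only was also added after seeing the data. Among the 24 miRNAs of smallest p, no value changed sign under any of the alternatives that gave one. They were chosen by small p in the same counts, which favours kept signs, so nothing is read from this. Sizes did move, as given above for miR-129-1* and miR-24-2* with copies summed. Thinning every library to the shallowest left miR-723*, miR-126b* and miR-24-2* without a value. With only the most abundant copy kept per name and arm, an alternative added after seeing the data, 21 of the 24 had a value. The others, miR-129-1*, miR-7a-3 and miR-24-2*, are less abundant copies that were kept apart in the main test. A stricter filter on counts left 23 with a value. The stage difference of the star arm share ran from 2.81 to 3.74 percentage points when single libraries were left out, and was 3.74 (p = 0.045, exact permutation test) without the third TCDD and 3.66 (p = 0.04, exact permutation test) without the second DMSO library at 36 hpf. The depth of the 36 hpf libraries, down to 459634 counts, limits the rare miRNAs.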

Other observations

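Rows named by Ensembl transcripts, outside the miRNAs, were fitted in 1 model together with them, an alternative added after seeing the data. Of 427 such rows tested, 0 were called for the stage difference by edgeR's quasi-likelihood test (smallest adjusted p = 0.0568). At an unadjusted p under 0.05 there were 49 (11.5%), of which 6 were positive and 43 negative. Beside them, 28 of the 410 miRNAs in the same fit had such a p. The median of the Ensembl rows was -0.41, against 0.29 for all miRNAs in the same fit. The scaling in that fit differs from the one used for the miRNAs alone.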
